A study of Mus musculus with 9 samples.

Results

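Insulin-like growth factor 1 (IGF1), its receptor, the IGF-binding proteins and the insulin receptor substrate adaptors were followed in NIH 3T3, an established fibroblast line from mouse embryos, after knockdown of either of the E2 enzymes for NEDD8. The set held 10 genes, Igf1, Igf1r, Igfbp2 to Igfbp7, Irs1 and Irs2, chosen by gene symbol out of 18193 genes with a probe set of their own on the array. Together they had 26 probe sets. For each gene the probe set with the highest mean log2 signal over all arrays stands for the gene, and its other probe sets are described beside it. A gene was tested if that mean reached the median of all probe sets, a signal of 53.8. That left 6 of the 10 members and 10613 of all genes, and Igf1, Igfbp2, Igfbp3 and Igfbp5 lay under the level.

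The series held 9 one-colour arrays in 3 groups of 3 biological replicates, and its title asks how particular pairs of E2 and RING proteins direct NEDD8 to cullins. The first group carried a retroviral vector with a short hairpin RNA (shRNA) against Ube2m, the second a vector with an shRNA against Ube2f, and the third a vector with a control shRNA. Both targets are E2 enzymes, which attach the small ubiquitin-like modifier NEDD8 to cullins. Cullins are the backbones of many ubiquitin ligases, and NEDD8 switches those ligases on. All groups shared the NIH 3T3 host, which the growth label describes as expressing Ube2f without saying whether this means an added transgene, medium with 10% fetal calf serum and 4 mM glutamine, and harvest 5 days after transduction. The labels name the target of each hairpin but not its sequence, the number of hairpins, or any selection of transduced cells. Serum itself brings hormones and growth factors, in all groups alike.

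IGF1 binds the IGF1 receptor, a tyrosine kinase, which phosphorylates IRS1 and IRS2, and these recruit phosphoinositide 3-kinase and so activate AKT and mTOR. The IGF-binding proteins hold IGFs outside the cell and are cut by secreted proteases, which frees the ligand. IRS1 protein is known to be turned over by the cullin ligase CUL7 with FBXW8, and in liver and many other tissues growth hormone induces Igf1 through JAK2 and STAT5. The arrays measured RNA, and neither protein nor phosphorylation.

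The Ube2f probe set read 134.9, 117.9 and 143.8 in the Ube2f shRNA cells, against 2366.7, 2492 and 2757.1 in control cells, a log2 fold change of -4.11 (adjusted p = 7.45e-10, limma with Benjamini-Hochberg adjustment). Another Ube2f probe set, taken when those that may cross-match were set aside, gave 0.20 (adjusted p = 0.881). For Ube2m no probe set with a single gene was used here, so that knockdown was not checked. The median signal was 53.1 to 58.3 on replicates 1 and 2 of all groups and 72.9, 73.2 and 63.8 on replicate 3 of the Ube2m, Ube2f and control groups. The labels give no batch, so each tested member below is also given from replicates 1 and 2 alone where that changed a call. The 3'/5' ratio of beta-actin, a measure of RNA integrity, was 1.82 on control replicate 1 and 1.24 to 1.35 on the other 8 arrays. All 12 fibroblast markers lay above the low-signal level. None of 6 endothelial, 5 adipocyte or 4 liver markers did, and their highest signals were 66.2, 45.3 and 51.8. Above the level were 3 of 7 macrophage, 2 of 6 epithelial and 2 of 6 skeletal muscle markers. The summed signal of the muscle list was 1029 to 1250 with Ube2m shRNA, 616.2 to 716.2 with Ube2f shRNA and 619 to 886.8 in controls, and that of the macrophage list was 880.9 to 1096 with Ube2m shRNA, 747.2 to 797 with Ube2f shRNA and 895.1 to 973.1 in controls. The epithelial list summed to 351 to 447.1 with Ube2m shRNA, 409.2 to 480.7 with Ube2f shRNA and 261.8 to 407.6 in controls. Most of the muscle sum was Acta1, with means of 957.2, 481.8 and 594.6 in the Ube2m, Ube2f and control groups. Cd14 was the largest term of the macrophage sum, with means of 507.7, 349.3 and 422.4. The fibroblast list summed to 157600 to 178000 with Ube2m shRNA, 181000 to 205700 with Ube2f shRNA and 163100 to 199400 in controls. The part of these lists in any result below was not tested.

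On the probe set that stood for each gene, Igfbp7, Irs1 and Igfbp4 were lower in Ube2m shRNA than in control cells. On the same terms, Igf1r was lower in Ube2f shRNA than in control cells. Set against the Ube2f shRNA cells, the Ube2m shRNA cells had less Irs1 and Igfbp7 and more Igf1r. With all probe sets averaged, none of the Igfbp7 and Igf1r calls passed (limma adjusted p 0.0892 to 0.69). Igfbp4 passed only narrowly, with overlapping groups, and Irs1 against control was lost without either of 2 arrays. Of the 6 members tested, 3 passed the test in Ube2m shRNA against control cells, where 9.71% of all genes tested passed. None was higher and 3 were lower, where 3.59% of all genes were higher and 6.12% lower. In Ube2f shRNA against control cells 1 passed, where 5.19% of all genes did. It was lower, as were 2.96% of all genes, while 2.23% were higher. In Ube2m against Ube2f shRNA cells 3 passed, where 15.8% of all genes did. Of these 1 was higher and 2 were lower, where 6.37% of all genes were higher and 9.38% lower. With 6 members these counts say little about the set as a whole, and the results are those of the single genes. The comparisons with control cells rest on the same 3 control arrays. P-values were two-sided and set each difference against a spread between replicates, pooled over the 3 groups and moderated over all genes tested.

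**Figure D1:**
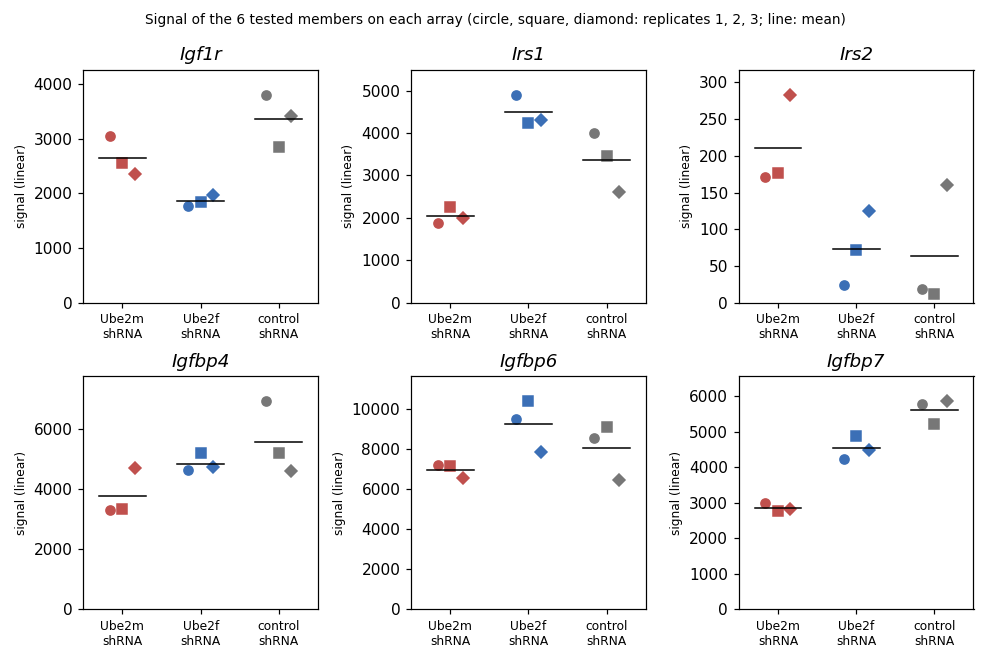
Linear signal of the 6 tested members on each of the 9 arrays, with Ube2m shRNA, Ube2f shRNA and control shRNA from left to right in every panel. Circles, squares and diamonds are replicates 1, 2 and 3 and the lines are group means. Irs1 was below both other groups on all 3 Ube2m shRNA arrays, at 1887 to 2257.3, and Igf1r was lowest on the 3 Ube2f shRNA arrays, at 1769.2 to 1971.4.

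**Figure D2:**
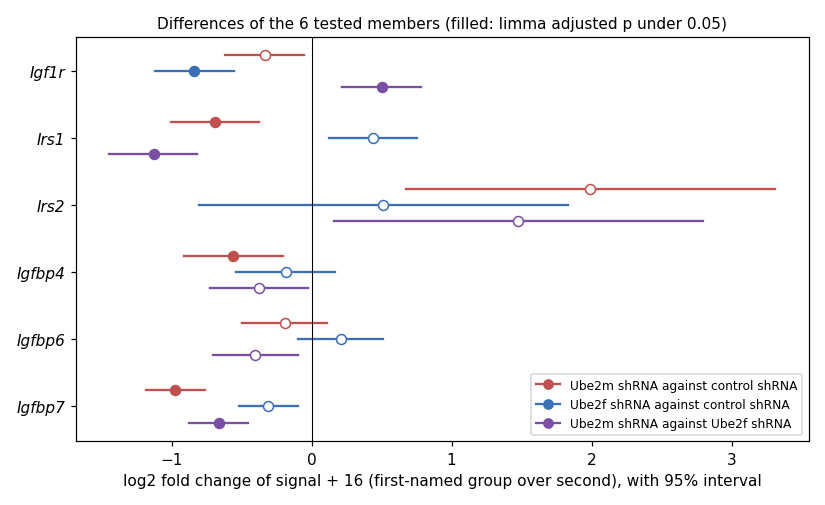
Log2 fold change of signal + 16 for the 6 tested members in the 3 comparisons, with 95% intervals from limma. Filled points passed an adjusted p of 0.05, and the vertical line marks no difference. Irs1 against the Ube2f shRNA cells, at -1.13, and Igfbp7 against control cells, at -0.97, lie far from the line, while the interval of Irs2 is the widest.

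Igf1, the ligand, was measured near the bottom of the signal range by all of its 4 probe sets. On the brightest of them it had signals of 16.1, 7.7 and 11.2 with Ube2m shRNA, 104.8, 136.3 and 59.6 with Ube2f shRNA and 44.7, 45.1 and 8.3 with control shRNA. All 3 Ube2f shRNA arrays lay above every other array, by a margin over the nearest control array that was small for replicate 3. The probe set next in brightness had 5.3, 10.9 and 25.4 with Ube2m shRNA, 57.8, 28.7 and 75 with Ube2f shRNA and 68.2, 29.7 and 31.7 with control shRNA. There the Ube2f shRNA and control arrays overlapped, and the Ube2m shRNA arrays were below both.

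Igf1 lay under the low-signal level of 53.8. On its brightest probe set, all Ube2m shRNA and control arrays lay within the range of the liver markers, 1.8 to 51.8. It therefore has no firm level in either group, and the size of its fold change is not a measured fold. It was fitted together with all 18193 genes without that filter. In that fit Igf1 was lower in Ube2m than in Ube2f shRNA cells, at -2.02 on the log2 scale (SE 0.416, limma adjusted p = 0.0101), where 7.62% of all genes passed. It passed without any single array (adjusted p 0.00356 to 0.0491). All 4 probe sets were lower in the Ube2m shRNA cells, with log2 fold changes of -2.02 to -0.47. In 3 of them the groups did not overlap, as was so for 34.4% of all genes tested. These probe sets read the same gene on the same arrays, all under the low-signal level, and are no separate support. Against control cells Igf1 passed in neither knockdown, at -0.71 (adjusted p = 0.448) with Ube2m shRNA, where 4.28% of all genes passed, and 1.32 (adjusted p = 0.146) with Ube2f shRNA, where 2.3% did. The log2 value was taken of signal + 16, and the added constant sets the size of the difference between the knockdowns, which was -1.09 with a constant of 64 (adjusted p = 0.00842). As in any bulk culture, fewer cells making a transcript and less of it per cell cannot be told apart.

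**Figure D3:**
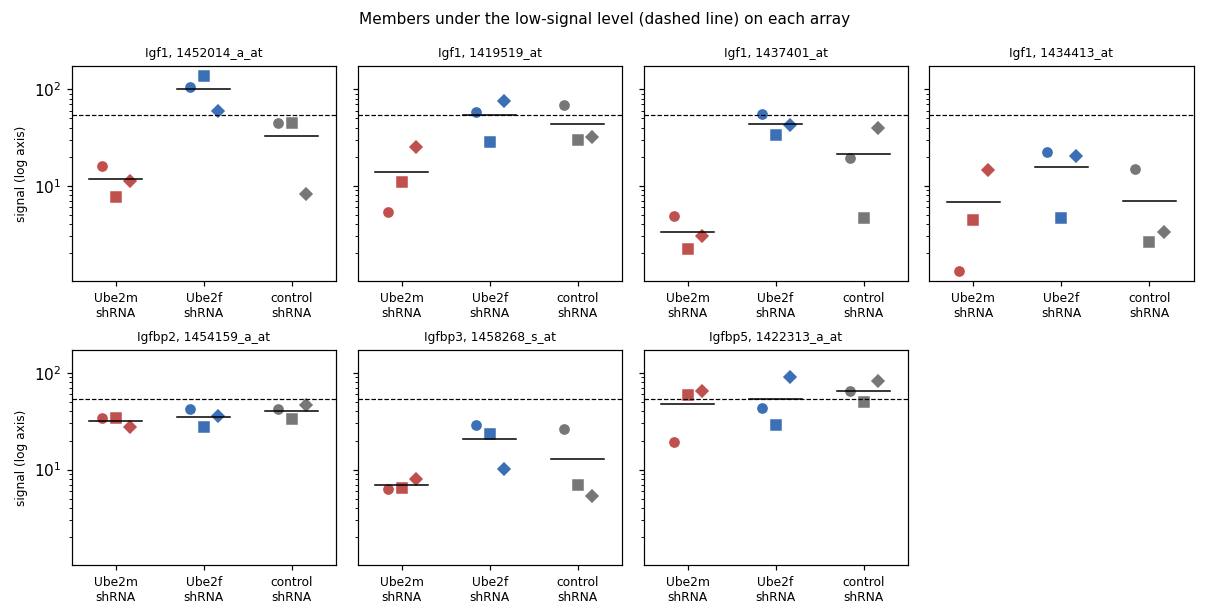
Signal on a log axis for the 4 probe sets of Igf1 and for the brightest probe sets of Igfbp2, Igfbp3 and Igfbp5, on each array, with Ube2m shRNA, Ube2f shRNA and control shRNA from left to right. The dashed line is the low-signal level of 53.8. The Ube2f shRNA arrays lie at 59.6 to 136.3 for the brightest Igf1 probe set, and for the other 3 genes the control arrays overlap both knockdowns.

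Igf1r encodes the receptor. Its brightest probe set had 3048.3, 2551.7 and 2354.5 with Ube2m shRNA, 1769.2, 1834.7 and 1971.4 with Ube2f shRNA and 3804.7, 2843.5 and 3416.7 with control shRNA. The Ube2f shRNA arrays were below all others, and the Ube2m shRNA and control arrays overlapped. In Ube2f shRNA cells Igf1r averaged 1858 ± 103, against 3355 ± 484 in control cells (SD, n = 3 each), and it fell by 0.84 on the log2 scale (SE 0.13, limma adjusted p = 0.00284). The call held without any single array, with log2 fold changes of -0.95 to -0.74. With Ube2m shRNA the log2 fold change against control was -0.34 (95% interval -0.62 to -0.05, adjusted p = 0.128). The Ube2m shRNA cells had more Igf1r signal than the Ube2f shRNA cells, by 0.50 (adjusted p = 0.0202). That call was lost without Ube2m shRNA replicate 1 or 2 or Ube2f shRNA replicate 1 or 2, at adjusted p of 0.055 to 0.1, and with arrays centred on the median (0.48, adjusted p = 0.158).

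The 4 other Igf1r probe sets, all above the low-signal level, gave a different picture. Each was fitted on its own among 19684 probe sets, of which 5.37% passed in Ube2m shRNA against control cells, 3.39% in Ube2f shRNA against control and 10.8% in Ube2m against Ube2f shRNA cells. In Ube2f shRNA against control cells their log2 fold changes were -0.26, -0.20, 0.10 and 0.20, with adjusted p of 0.545 to 0.91, and all overlapped between the groups. In Ube2m against Ube2f shRNA cells they were 0.14, 0.38, -0.13 and -0.17 (limma adjusted p 0.27 to 0.865). With all Igf1r probe sets averaged, the Ube2f shRNA difference was -0.20 (adjusted p = 0.612) and that between Ube2m and Ube2f shRNA cells was 0.14 (adjusted p = 0.679). The fall of Igf1r in Ube2f shRNA cells therefore rests on a single probe set. Which transcript isoforms the probe sets read was not tested.

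**Figure D4:**
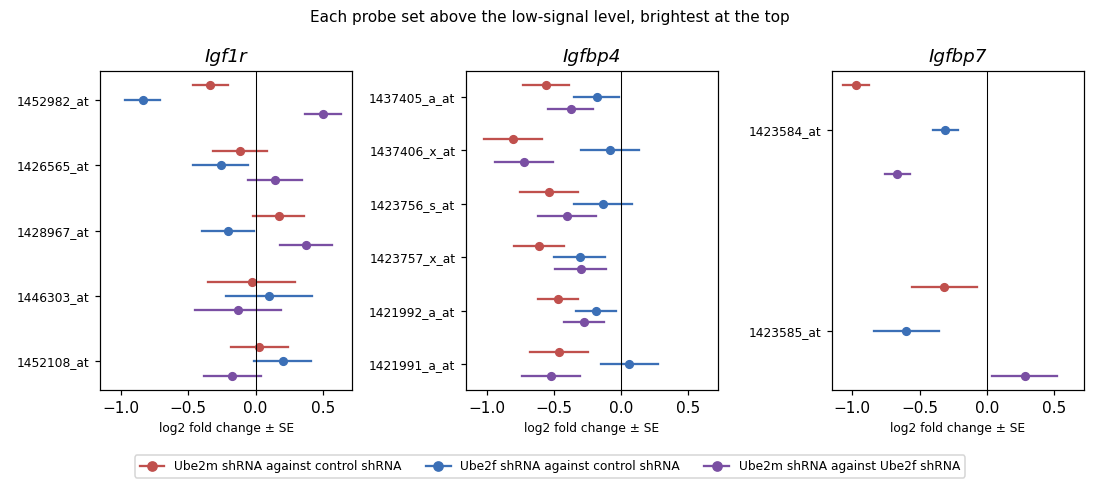
Log2 fold change ± SE of each probe set of Igf1r, Igfbp4 and Igfbp7 above the low-signal level in the 3 comparisons, each probe set fitted on its own and the brightest at the top. In Ube2f shRNA against control cells the brightest Igf1r probe set stands apart from the other 4. All 6 Igfbp4 probe sets lie left of the line for Ube2m shRNA against control, at -0.81 to -0.46.

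Irs1 and Irs2 encode the adaptors that link the receptor to phosphoinositide 3-kinase. Each had a single probe set, which leaves no second reading of either gene. Irs1 had signals of 1887, 2257.3 and 1985.7 with Ube2m shRNA, 4902.9, 4238.5 and 4315.7 with Ube2f shRNA and 3998.2, 3453.2 and 2607.5 with control shRNA. The 3 groups did not overlap at all, with the Ube2m shRNA cells lowest and the Ube2f shRNA cells highest. The Ube2m shRNA mean was 60.9% of the control mean and 45.6% of the Ube2f shRNA mean.

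Irs1 fell by 0.69 on the log2 scale in Ube2m shRNA against control cells (SE 0.145, limma adjusted p = 0.0114), and all 3 same-numbered differences were negative, at -1.08, -0.61 and -0.39. The call was lost without Ube2m shRNA replicate 1 (-0.64, adjusted p = 0.0563) and without control replicate 1 (adjusted p = 0.0531), the array with the high beta-actin ratio. With that ratio as a covariate the value was -0.55 (adjusted p = 0.0529), and with arrays centred on the median -0.78 (adjusted p = 0.0574). From replicates 1 and 2 alone it was -0.84 (adjusted p = 0.000782). In Ube2f shRNA cells Irs1 did not pass against control, at 0.44 (95% interval 0.12 to 0.75, adjusted p = 0.107), although all 3 arrays lay above the controls. Between the knockdowns Irs1 was lower in Ube2m shRNA cells at -1.13 on the log2 scale (SE 0.145, adjusted p = 0.000276). That difference passed under all 21 alternatives run, and within replicates 1, 2 and 3 it was -1.37, -0.90 and -1.11.

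Irs2 was much dimmer on its probe set. It had 170.6, 176.8 and 283.3 with Ube2m shRNA, 24.6, 71.1 and 124.9 with Ube2f shRNA and 19.1, 11.7 and 160.1 with control shRNA. Replicate 3 was the highest of each group. The Ube2m shRNA arrays lay above all others, yet only narrowly above control replicate 3.

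Irs2 reached the low-signal level only through the Ube2m shRNA cells, where its mean log2 signal was 7.79, against 6.31 in Ube2f shRNA and 5.79 in control cells. Being tested at all therefore required it to be high there, and its values are a description. In Ube2m shRNA against control cells the log2 fold change of Irs2 was 1.99 (95% interval 0.67 to 3.31) and missed the threshold (limma adjusted p = 0.0594). Without control replicate 3 it was 2.82 (adjusted p = 0.00284), and from replicates 1 and 2 alone 2.61 (adjusted p = 0.0017). It also passed without Ube2f shRNA replicate 3 (adjusted p = 0.0427) and with quantile normalization (adjusted p = 0.0469). In Ube2f shRNA cells it was 0.51 against control (adjusted p = 0.696), and 0.93 from replicates 1 and 2 alone (adjusted p = 0.172). Ube2m against Ube2f shRNA cells gave 1.48 (adjusted p = 0.128). There, same-numbered arrays deviated together, though Ube2m shRNA replicate 1 was closer to a Ube2f shRNA array of another number. With the replicate number as a block the limma adjusted p was 0.0138. From replicates 1 and 2 alone it was 1.67 (adjusted p = 0.0146). With control signals as low as 11.7 and 19.1 these log2 values depend on the added constant and are no measured fold.

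The stretches of 250 bases before the transcription start of Irs1 and Irs2 are shown because the Irs1 signal separated all 3 groups and Irs2 encodes the related adaptor. They come from RefSeq for the build GRCm38.p6 and run 5′ to 3′ on the minus strand, chr1:82291440-82291689 for Irs1 and chr8:11008930-11009179 for Irs2. Capitals mark a match to the antioxidant response element core TGACNNNGC, searched on both strands, together with the E-box CACGTG that overlaps it.
Irs1: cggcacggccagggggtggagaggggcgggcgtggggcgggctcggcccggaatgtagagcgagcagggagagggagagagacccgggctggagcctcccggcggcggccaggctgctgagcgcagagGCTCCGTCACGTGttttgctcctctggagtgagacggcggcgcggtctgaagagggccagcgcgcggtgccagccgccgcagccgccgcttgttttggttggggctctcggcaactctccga
Irs2: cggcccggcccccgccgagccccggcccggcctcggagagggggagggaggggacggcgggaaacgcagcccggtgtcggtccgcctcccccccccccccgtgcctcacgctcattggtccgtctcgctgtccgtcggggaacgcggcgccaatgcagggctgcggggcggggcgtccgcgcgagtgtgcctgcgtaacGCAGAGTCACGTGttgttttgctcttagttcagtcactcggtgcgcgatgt
Both windows are rich in G and C, at 72.4% for Irs1 and 72.8% for Irs2, with 28 and 34 CpG pairs, where the median over 32851 such windows was 52.4% and 6. The antioxidant core, known as the binding site of NRF2, a substrate of the cullin ligase CUL3 with KEAP1, occurred in 10.2% of all windows, and a core overlapping an E-box in 0.225%. The E-box was added to the search after these sequences were seen. A match of letters is a description and shows no binding.

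For Igf1r and Igfbp7, whose calls against control held without any single array, the same stretches are given with the GC box GGGCGG, the usual site of SP-family factors, in capitals on either strand (CCGCCC on the other). Igf1r lies on the plus strand at chr7:67952007-67952256 and Igfbp7 on the minus strand at chr5:77408046-77408295 of GRCm38.p6, from RefSeq.
Igf1r: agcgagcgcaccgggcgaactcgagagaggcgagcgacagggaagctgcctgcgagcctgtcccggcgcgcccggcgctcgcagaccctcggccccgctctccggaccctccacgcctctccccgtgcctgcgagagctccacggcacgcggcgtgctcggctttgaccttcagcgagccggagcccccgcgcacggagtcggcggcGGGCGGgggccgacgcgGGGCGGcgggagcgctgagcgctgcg
Igfbp7: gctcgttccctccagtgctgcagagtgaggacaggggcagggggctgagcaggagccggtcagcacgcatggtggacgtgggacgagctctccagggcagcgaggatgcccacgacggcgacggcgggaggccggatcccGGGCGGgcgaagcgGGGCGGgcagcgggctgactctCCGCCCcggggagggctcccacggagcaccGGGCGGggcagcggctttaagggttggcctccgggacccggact
The Igf1r window held 2 GC boxes and the Igfbp7 window 4, and 32.7% of all windows held at least 1. The window of Igfbp4, called in Ube2m shRNA cells, held 0, and a window of Igfbp2, which was dim and not called, held 3. The other Igfbp2 window and those of Igf1, Igfbp3, Igfbp5 and Igfbp6 held 0. Whether the box goes with the calls was not tested. The Irs1 window held 2 and the Irs2 window 1. The Igf1r and Igfbp7 windows had 77.6% and 74.0% G and C. None of the 10 members had a STAT5 site (TTCNNNGAA, in 7.02% of all windows), a FOXO site (GTAAACA, 3.17%) or a cyclic AMP response element (TGACGTCA, 1.55%) in its window, which says only that these letters are not there.

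Among the binding proteins, Igfbp7 showed the clearest difference. IGFBP7 is a secreted protein that binds IGFs only weakly. It had signals of 2982.4, 2759.4 and 2807.6 with Ube2m shRNA, 4237, 4881 and 4479.7 with Ube2f shRNA and 5768.3, 5211.8 and 5864.4 with control shRNA. The groups were separate, in the order Ube2m shRNA, Ube2f shRNA, control from low to high. Igfbp7 averaged 2850 ± 117 with Ube2m shRNA and 5615 ± 352 in control cells (SD, n = 3 each), so that Ube2m shRNA cells had 50.8% of the control signal. The log2 fold change was -0.97 (SE 0.098, limma adjusted p = 0.000109), at -0.95, -0.91 and -1.06 within replicates 1, 2 and 3. With Ube2f shRNA it was -0.31 against control (95% interval -0.52 to -0.10, adjusted p = 0.0936), which missed the threshold. Between the knockdowns Igfbp7 was lower in Ube2m shRNA cells, at -0.66 (adjusted p = 0.000712). Both calls held without any single array.

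The second Igfbp7 probe set above the low-signal level was far dimmer and did not give the same order. Its log2 fold changes against control were -0.32 (adjusted p = 0.506) in Ube2m shRNA cells and -0.60 (adjusted p = 0.218) in Ube2f shRNA cells, and in Ube2m against Ube2f shRNA cells it was 0.28 (adjusted p = 0.55). With all probe sets averaged, the Ube2m shRNA difference was -0.46 from control (adjusted p = 0.0892) and -0.12 from Ube2f shRNA cells (adjusted p = 0.69).

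Igfbp4, whose protein binds IGFs and holds them from the receptor until PAPPA cuts it, had 3292.3, 3347.8 and 4691.7 with Ube2m shRNA, 4621.6, 5189.9 and 4722 with Ube2f shRNA and 6933.3, 5210.2 and 4593.3 with control shRNA. The groups overlapped, since replicate 3 of the Ube2m shRNA cells was above control replicate 3. Igfbp4 fell by 0.56 on the log2 scale in Ube2m shRNA against control cells (SE 0.163), just past the threshold (limma adjusted p = 0.0493). Within replicates 1, 2 and 3 the difference was -1.07, -0.64 and 0.03, and from replicates 1 and 2 alone it was -0.85 (adjusted p = 0.000908). The call was lost without replicate 1 or 2 of any of the 3 groups (adjusted p 0.0614 to 0.193). It was also lost without the filter, the signal trend or the sharing of the spread with the third group, with median or quantile scaling, and with the beta-actin covariate (adjusted p up to 0.195). All 6 probe sets of Igfbp4 were lower in the Ube2m shRNA cells, though they read the same gene on the same arrays. In 2 of them the groups did not overlap, as was so for 29.7% of all genes tested. The remaining comparisons did not pass, at -0.18 (adjusted p = 0.582) for Ube2f shRNA against control and -0.38 (adjusted p = 0.149) for Ube2m against Ube2f shRNA. From replicates 1 and 2 alone the difference between the knockdowns was -0.56 (adjusted p = 0.00803).

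Igfbp6, which prefers IGF2 as its ligand, had 7169.5, 7123.9 and 6531.8 with Ube2m shRNA, 9481.2, 10384.1 and 7834.8 with Ube2f shRNA and 8548.6, 9089.5 and 6423.5 with control shRNA. Replicate 3 was the lowest of each group. No comparison passed, with log2 fold changes of -0.19 (adjusted p = 0.437) for Ube2m shRNA and 0.21 (adjusted p = 0.445) for Ube2f shRNA against control. Ube2m against Ube2f shRNA cells gave -0.40 (adjusted p = 0.0734) with no overlap between the groups, and an adjusted p of 0.00714 with the replicate number as a block. From replicates 1 and 2 alone it was -0.47 (adjusted p = 0.0024), and Ube2m shRNA against control was -0.30 (adjusted p = 0.0317).

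Igfbp2, Igfbp3 and Igfbp5 encode carriers that other cell types secrete in large amounts, and all were dim here. Igfbp2 had 34, 34 and 27.5 with Ube2m shRNA, 42, 27.6 and 36.2 with Ube2f shRNA and 42.1, 33.4 and 46.5 with control shRNA. Igfbp5 had 19.2, 59.5 and 64.5 with Ube2m shRNA, 43.6, 29.2 and 90.3 with Ube2f shRNA and 64.5, 49.5 and 82.8 with control shRNA. Igfbp3 had 6.3, 6.5 and 8 with Ube2m shRNA, 29.1, 23.3 and 10.2 with Ube2f shRNA and 26.1, 7 and 5.3 with control shRNA. The second Igfbp3 probe set had 4.6, 2.7 and 4.3 with Ube2m shRNA, 1.8, 1.7 and 2.7 with Ube2f shRNA and 4, 16.5 and 25 with control shRNA. There the Ube2f shRNA arrays lay below the controls, with a log2 fold change of -0.73, where the brighter probe set gave 0.39. The second Igfbp5 probe set had 12.1, 22 and 4.2 with Ube2m shRNA, 1.7, 3.4 and 21 with Ube2f shRNA and 3.3, 14 and 1.6 with control shRNA, and all groups overlapped. On the brighter probe sets the control arrays overlapped both knockdowns for all 3 genes. In the fit without the filter none passed, with log2 fold changes of -0.65 to 0.39 over the 3 comparisons. For these 3 genes no difference from control was detectable at such signals.

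Taken without regard to the test, the groups did not overlap for 3 of the 6 tested members in Ube2m shRNA against control cells, where 29.7% of all genes tested did not overlap. The count was 3 in Ube2f shRNA against control cells, against 23.2% of all genes, and 5 in Ube2m against Ube2f shRNA cells, against 34.4%. Both counts with Ube2m shRNA include Irs2, which was tested only because it was high in those cells, so its lack of overlap is no support. The median log2 fold change of all genes was -0.04, 0.01 and -0.04 in these comparisons.

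The genes most like each called member were taken as those with the smallest root mean square difference over the 9 arrays between log2 values centred on the gene's own mean, among 10607 genes. For Irs1 these were Naglu (0.0623), Ephb3 (0.102) and Mrgprf (0.115), where Irs1 itself varied by 0.495 around its mean. For Igfbp7 they were Rin1 (0.115), Chmp1a (0.131) and Cebpd (0.133), and for Igfbp4 Plppr2 (0.0485), Slc4a2 (0.093) and Galnt2 (0.0943). For Igf1r they were Nsd2 (0.123), Tns3 (0.13) and Fam117b (0.145). These are likenesses of pattern over 9 arrays and no more.

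The pathway around the members was followed in 6 lists of 94 genes. Probe sets existed for 90 of them, and 78 were tested. Of these 78, 2 rose and 7 fell in Ube2m shRNA against control cells (11.5%, against 9.71% of all genes). In Ube2f shRNA against control cells 5 rose and 6 fell (14.1%, against 5.19%), and in Ube2m against Ube2f shRNA cells 6 were higher and 7 lower (16.7%, against 15.8%). Of the Ube2f shRNA calls, 4 that rose and 1 that fell came from the 8 genes of the growth hormone axis. The lists were chosen with earlier results of these data known, so these shares describe the lists and test nothing about the pathway. The median log2 fold change over the lists was -0.09, -0.04 and -0.09 in the 3 comparisons, beside the medians of all genes given above. Of 41 calls of members and pathway genes, Igf1 included, 10 passed under all alternatives run. They included Igf1, whose signals lay under the low-signal level, in Ube2m against Ube2f shRNA cells. Igf1 had only 13 alternatives, where the other calls named here had 21. It was not refitted with probe sets averaged, with quantile normalization or with the beta-actin covariate, so it is not shown to be as stable as the rest. The others were Irs1, Adamts1, Adam9, Adam12, Socs2 and Cish in Ube2m against Ube2f shRNA cells, Adamts1 and Adam9 in Ube2m shRNA against control cells and Socs2 in Ube2f shRNA against control cells.

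Of the other ligands, receptors and carriers, 3 of 8 genes were tested. None passed in any comparison, where 9.71%, 5.19% and 15.8% of all genes did. Igf2, the second ligand, had 53.7, 67.1 and 144 with Ube2m shRNA, 184.5, 158.2 and 196.7 with Ube2f shRNA and 46, 104.5 and 126.2 with control shRNA. Its Ube2f shRNA arrays were above all others, at a log2 fold change of 0.94 against control (limma adjusted p = 0.152). Between Ube2m and Ube2f shRNA cells it was -1.0 (adjusted p = 0.0743), and 0.0187 was the adjusted p with the replicate number as a block. The insulin receptor gene Insr gave 0.04 with Ube2m shRNA and 0.05 with Ube2f shRNA, both against control.

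The proteases that cut binding proteins, and their inhibitors, had 8 of 10 genes tested. In Ube2m shRNA against control cells 1 rose and 2 fell, in Ube2f shRNA against control none passed, and in Ube2m against Ube2f shRNA cells 1 was higher and 2 lower. These were 37.5%, 0% and 37.5% of the 8 genes, where 9.71%, 5.19% and 15.8% of all genes passed. With 8 genes, chosen with earlier results of these data known, such shares are a description. Adamts1, a secreted metalloprotease, had 1144.4, 1084.7 and 1090.9 with Ube2m shRNA, 2212, 2233.8 and 2320.4 with Ube2f shRNA and 2948.9, 2345.9 and 1863.4 with control shRNA. All Ube2m shRNA arrays were far below both other groups, at a log2 fold change of -1.07 against control (limma adjusted p = 0.000705) and -1.02 against Ube2f shRNA cells (adjusted p = 0.000467). Adam9, a membrane metalloprotease, was lower by -0.56 (adjusted p = 0.00672) and -0.62 (adjusted p = 0.0017) in the same comparisons. These 4 calls held without any single array, as did Adam12, which was higher in Ube2m than in Ube2f shRNA cells by 0.74 (adjusted p = 0.00538). Htra1, a secreted serine protease, rose by 0.56 in Ube2m shRNA against control cells (adjusted p = 0.0129), a call lost without Ube2m shRNA replicate 1 (adjusted p = 0.0651).

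Close to the receptor, 19 of 23 adaptors and phosphatases were tested and 1 passed in each comparison. That was 5.26% each time, where 9.71%, 5.19% and 15.8% of all genes passed. Sos1, an exchange factor that activates RAS, was lower in Ube2m shRNA against control cells (-0.52, limma adjusted p = 0.0226), a call lost without replicate 1 or 2 of the Ube2m shRNA or the control cells (adjusted p 0.0648 to 0.111). With all its probe sets averaged Sos1 turned to 0.30 (adjusted p = 0.557). The adaptor Shc1 was lower in Ube2f shRNA against control cells (-0.48, adjusted p = 0.0456), which was lost without Ube2m replicate 1 or 2, any one Ube2f replicate, or control replicate 1 or 2 (0.0674 to 0.185) and with its probe sets averaged (-0.31, adjusted p = 0.204). Sos2, which acts as Sos1 does, was higher in Ube2m than in Ube2f shRNA cells (0.55, adjusted p = 0.0177), lost without Ube2m replicate 1 or 3 or Ube2f replicate 1 or 2 (0.0523 to 0.0748).

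The branch from phosphoinositide 3-kinase through AKT to FOXO and mTOR had all 34 of its genes with a probe set tested. It had 0 higher and 1 lower in Ube2m shRNA against control cells, 1 and 2 in Ube2f shRNA against control, and 3 and 1 in Ube2m against Ube2f shRNA cells. These were 2.94%, 8.82% and 11.8% of its tested genes, where 9.71%, 5.19% and 15.8% of all genes passed. Eif4ebp2, a repressor of translation that mTOR releases, had 1850.6, 1920.8 and 1936.2 with Ube2m shRNA, 2394.3, 2426.6 and 2313.7 with Ube2f shRNA and 1634, 1575.1 and 1670.5 with control shRNA. It rose by 0.54 in Ube2f shRNA against control cells (limma adjusted p = 0.00516), without any single array too, but with all its probe sets averaged the value was -0.06. Between the knockdowns it was -0.32 (adjusted p = 0.0329), or 0.23 averaged, a call lost without any one Ube2m replicate or Ube2f replicate 1 or 2 (0.0644 to 0.128). The kinase subunit Pik3cb was lower in Ube2f shRNA against control cells (-0.44, adjusted p = 0.0357), lost when any array other than Ube2m replicate 3 was left out (0.0535 to 0.143). The phosphatase Phlpp1, which acts on AKT, was lower there as well (-0.53, adjusted p = 0.0267), lost without Ube2m replicate 2, Ube2f replicate 1 or 2 or control replicate 1 or 3 (0.0504 to 0.132).

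The other calls of the branch were similarly close to the threshold. The kinase subunit Pik3r2 was lower in Ube2m shRNA against control cells (-0.46, limma adjusted p = 0.0392), lost when any array other than Ube2f replicate 3 and control replicate 2 was left out (0.0506 to 0.142). In Ube2m against Ube2f shRNA cells, Pik3cb was 0.39 (adjusted p = 0.0279) and the mTOR inhibitor Akt1s1 0.37 (adjusted p = 0.0337). Both were lost without any one Ube2m replicate or Ube2f replicate 1 or 3 (0.0683 to 0.107 over both). Akt1s1 was 0.28 with its probe sets averaged (adjusted p = 0.16). The cap-binding protein gene Eif4e was 0.39 (adjusted p = 0.046), lost without Ube2m replicate 1 or 2 or any one Ube2f replicate (0.0509 to 0.157) and with its probe sets averaged (0.29, adjusted p = 0.222).

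Of the ligases and their partners that turn over IRS proteins, 6 of 8 genes were tested. Obsl1, which assembles with CUL7, had 317.3, 291.6 and 234.3 with Ube2m shRNA, 495.5, 569.7 and 479.6 with Ube2f shRNA and 495.5, 386.1 and 377.9 with control shRNA. It was lower in Ube2m than in Ube2f shRNA cells (-0.84, limma adjusted p = 0.00347), a call that held without any single array but read 0.13 once probe sets open to matching several transcripts were set aside, and -0.42 (adjusted p = 0.123) with all averaged. Against control Obsl1 was -0.55 in Ube2m shRNA cells (adjusted p = 0.0468), lost when any array other than Ube2f replicate 3 and control replicate 3 was left out (0.0563 to 0.167). There it read 0.19 with cross-matching probe sets set aside and -0.27 averaged (adjusted p = 0.38). Cul7, the cullin of the ligase, was lower in Ube2f shRNA against control cells (-0.55, adjusted p = 0.0223), lost without Ube2f replicate 1 or 3 or control replicate 1 or 2 (0.05 to 0.09). Cblb, a RING ligase of receptor signalling, was lower there too (-0.65, adjusted p = 0.0292), lost when any array other than Ube2m replicates 1 and 3 was left out (0.0515 to 0.105). Between the knockdowns Cblb was higher in Ube2m shRNA cells (0.76, adjusted p = 0.00528), and this held without any single array. With all Cblb probe sets averaged both calls were lost, at -0.41 for Ube2f shRNA against control (adjusted p = 0.258) and 0.46 for Ube2m against Ube2f shRNA cells (adjusted p = 0.125).

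The growth hormone axis had all of its 8 genes tested. In Ube2m shRNA against control cells 1 rose and 2 fell, in Ube2f shRNA against control 4 rose and 1 fell, and in Ube2m against Ube2f shRNA cells none was higher and 3 were lower. These were 37.5%, 62.5% and 37.5% of the 8 genes, where 9.71%, 5.19% and 15.8% of all genes passed. The list medians were -0.28, 0.48 and -0.39, beside -0.04, 0.01 and -0.04 for all genes. With 8 genes, chosen with earlier results of these data known, these values are a description. Socs2, a feedback inhibitor of growth hormone signalling that STAT5 induces, had 289.3, 327.7 and 271.9 with Ube2m shRNA, 1746.8, 1378.1 and 1675.3 with Ube2f shRNA and 400.4, 508.8 and 838.2 with control shRNA. The groups did not overlap, and Ube2f shRNA cells were the highest, as they were for Igf1 on its brightest probe set. Socs2 rose by 1.49 in Ube2f shRNA against control cells (limma adjusted p = 0.00183) and was lower in Ube2m than in Ube2f shRNA cells by -2.37 (adjusted p = 1.74e-05), both without any single array too. In Ube2m shRNA against control cells it fell by 0.88 (adjusted p = 0.024), lost with its probe sets averaged (-0.40, adjusted p = 0.307) and without any one Ube2m replicate (0.0574 to 0.0786).

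Cish, another STAT5-induced inhibitor, had 155.2, 151.2 and 176.3 with Ube2m shRNA, 322, 394.7 and 343.9 with Ube2f shRNA and 191.3, 182.9 and 222.2 with control shRNA. The Ube2f shRNA arrays were well above both other groups. Cish was lower in Ube2m than in Ube2f shRNA cells by -1.06 (limma adjusted p = 0.000835), without any single array too, and rose by 0.78 in Ube2f shRNA against control cells (adjusted p = 0.0153), lost without Ube2f replicate 2 or control replicate 1 (0.0505 and 0.0655). Ghr, the growth hormone receptor, had 1853.8, 1844.6 and 1916.7 with Ube2m shRNA, 1872.6, 1557.7 and 2140.7 with Ube2f shRNA and 2694.2, 2702.7 and 3109.1 with control shRNA. Both knockdowns lay below control, at -0.59 (adjusted p = 0.0107) with Ube2m shRNA and -0.62 (adjusted p = 0.0127) with Ube2f shRNA. Leaving out Ube2m replicate 2 (0.0517) or Ube2f replicate 1 (0.0538) ended these calls, as did averaging its probe sets in Ube2f shRNA cells (-0.30, adjusted p = 0.251).

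Socs3, an inhibitor of cytokine receptors, rose by 0.71 in Ube2f shRNA against control cells (limma adjusted p = 0.00254), without any single array too, but it read 0.48 (adjusted p = 0.119) with its probe sets averaged and 0.29 (adjusted p = 0.489) once probe sets open to matching several transcripts were set aside. It also rose by 0.44 in Ube2m shRNA against control cells (adjusted p = 0.0249), which was lost without any one Ube2m replicate or control replicate 1 or 2 (0.0584 to 0.112) and read -0.08 once probe sets open to matching several transcripts were set aside. Socs1, a related inhibitor, rose by 1.24 in Ube2f shRNA against control cells (adjusted p = 0.02), lost without replicate 1 or 2 of either group (0.0514 to 0.0804). The Socs1 call was also lost without the filter and with the beta-actin covariate. Its signals were 136.1, 167.1 and 125.7 with Ube2f shRNA. With control shRNA they were 57.8, 46.6 and 48.3, near the low-signal level of 53.8. Stat5a was lower in Ube2m than in Ube2f shRNA cells (-0.53, adjusted p = 0.0224), lost without Ube2m replicate 1 or 2 or any one Ube2f replicate (0.0505 to 0.0873) and with its probe sets averaged (-0.32, adjusted p = 0.169).

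**Figure D5:**
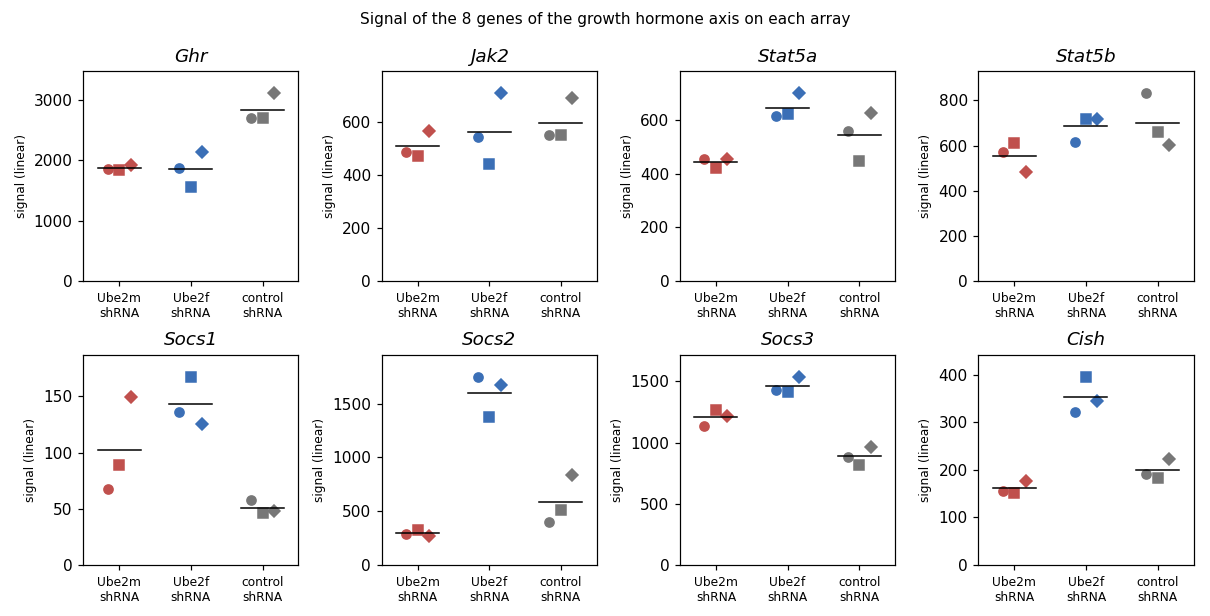
Linear signal of the 8 genes of the growth hormone axis on each array, with Ube2m shRNA, Ube2f shRNA and control shRNA from left to right, circles, squares and diamonds for replicates 1, 2 and 3, and lines for group means. Socs2 and Cish are highest on the 3 Ube2f shRNA arrays, at 1378.1 to 1746.8 and 322 to 394.7, and Ghr is highest on the 3 control arrays.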

How the data were processed

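RNA of 9 NIH 3T3 cultures was measured on one-colour arrays. The deposited values are each probe set's intensity on a linear scale, made with MAS5 per the submitters' processing notes, and every array had the same mean, 500, over its 45101 probe sets once the extreme 2% at each end were trimmed. Neither the version of MAS5 nor any detection call is given in the sources used here. Arrays count no depth, and it is the number of arrays that sets the precision.

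The analysis used log2(signal + 16). Left out were 64 control probe sets, 932 with several genes and 9160 without a name. Names came from a table of platform annotation, which can be old. Each of 18193 genes was represented by its brightest probe set, and the 10613 with a mean of at least 6.12 were tested. The model, run in limma 3.58.1 (R 4.3.3), gave each group a mean, used all 9 arrays and moderated the variance with a trend on signal (6.55 prior degrees of freedom), with Benjamini-Hochberg adjustment over all genes tested and a threshold of 0.05. With 3 against 3 arrays the smallest p of an exact permutation test is 0.1, and none was run. The script was tested on simulated data. The members, lists, alternatives and rule for named genes (up to 6 genes per list and comparison with the smallest p past the threshold, and the 3 genes most like each called member) were chosen with earlier results of these data known.

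Whether same-numbered replicates pair was checked by the correlation of their deviations from the group means. For Ube2m and Ube2f shRNA it was 0.201, 0.211 and 0.557 for replicates 1, 2 and 3, each over 0.1, so the replicate number was taken as pairing these groups, from the data and not the labels. Ube2m shRNA replicate 1, however, correlated more with a Ube2f shRNA array of another number. The pairing is therefore uncertain, and so are the values with the replicate number as a block. For control it was -0.00462, 0.185 and 0.317 with Ube2m shRNA and 0.0148, 0.157 and 0.349 with Ube2f shRNA, and no pairing was taken.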

Additional observations from a re-analysis of the deposited data

How the results depend on the processing

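Among 6 tested members, 3 passed in Ube2m shRNA against control cells. The count was 1 with arrays centred on the median, 1 with beta-actin 3'/5' as a covariate, 5 from replicates 1 and 2 only, and 1 to 4 leaving out 1 array. In Ube2f shRNA against control cells 1 passed. The count was 3 with the replicate number as a block, 3 with replicate 3 as a batch term and 1 leaving out any array, and with all probe sets averaged limma called 0, with 2 at an unadjusted p under 0.05. In Ube2m against Ube2f shRNA cells 3 passed. The count was 1 with probe sets averaged, 5 with only the 2 groups compared, 5 with the replicate number as a block, 5 with replicate 3 as a batch term, 6 from replicates 1 and 2 only and 2 to 5 leaving out 1 array. Members gained in both comparisons with Ube2m shRNA included Irs2, which was tested only through its signal in those cells. The number of all genes called moved with the setting too. Over the 21 alternatives it was 388 to 2118, 195 to 1461 and 868 to 2714 in the 3 comparisons. A member count under a setting, without the share of all genes under it, is therefore no result about the members.

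Of the pathway genes, 9 passed in Ube2m shRNA against control cells. The count was 5 with probe sets averaged, 5 centred on the median, 4 with the beta-actin covariate, 17 with the replicate block, 19 with the batch term and 3 to 10 leaving out 1 array. In Ube2f shRNA against control cells 11 passed, and the count was 7 without the filter, 6 averaged, 6 leaving out probe sets open to several transcripts, 5 centred, 7 with only the 2 groups, 4 with the covariate, 19 with the batch term and 4 to 11 leaving out 1 array. In Ube2m against Ube2f shRNA cells 13 passed, and the count was 21 with the replicate block, 25 with the batch term and 7 to 15 leaving out 1 array. The block gave Igfbp7 and Irs1 a call in Ube2f shRNA against control cells (adjusted p 0.0454 and 0.0344) and Irs2 in Ube2m shRNA against control (0.00407). Those groups share only replicate numbers. The pathway counts, like the member counts, moved along with the number of all genes called and are no result about the lists.

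Values that turned sign were few. With probe sets averaged they were Sos1 (0.30, Ube2m shRNA against control) and Eif4ebp2 (-0.059 in Ube2f shRNA against control, 0.23 in Ube2m against Ube2f shRNA). Leaving out probe sets open to several transcripts they were Obsl1 (0.19 in Ube2m shRNA against control, 0.13 in Ube2m against Ube2f shRNA), Socs3 (-0.080, Ube2m shRNA against control) and the target Ube2f itself (-0.50 in Ube2m shRNA against control, 0.20 in Ube2f shRNA against control, -0.70 in Ube2m against Ube2f shRNA). Other probe sets fitted alone turned Igf1r (0.17 and 0.029 in Ube2m shRNA against control, 0.10 and 0.20 in Ube2f shRNA against control, -0.13 and -0.17 in Ube2m against Ube2f shRNA), Igfbp4 (0.0605, Ube2f shRNA against control) and Igfbp7 (0.28, Ube2m against Ube2f shRNA). The cause was not tested. Of 41 calls of members and pathway genes, 17 passed without any single array. The number of all genes called was 1031, 551 and 1672 in the 3 comparisons and 388 to 2118, 195 to 1461 and 868 to 2714 over 21 alternatives. Signals near the low-signal level limit what can be said of Igf1, Igfbp2, Igfbp3, Igfbp5, Irs2 and Socs1.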
